A study of Mus musculus with 23 samples.

Results

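The genes described are the 78 mouse genes named Mrpl or Mrps with a number, which encode proteins of the mitochondrial ribosome. They were chosen by name alone, leaving out names marked as pseudogenes, from 49315 counted genes. By name, 49 belong to the large subunit and 29 to the small subunit. All 78 were found among the counts by gene ID, and 78 of 78 passed the filter on low counts that left 15500 genes for testing.

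RNA came from the left ventricle of FVB mice in 3 exposures: filtered air, e-cigarette aerosol made from the vehicle liquid alone, and aerosol of the same vehicle carrying nicotine. Daily sessions lasted 4 hours, 5 times a week, for 3 months, and began at an age of 3 weeks or of 3 months. The groups that began at 3 weeks are called the 3-week groups (4 air, 3 vehicle and 4 nicotine libraries), and the others the 3-month groups (4 libraries each). Whether each library is from a different animal is not in the labels, so p-values measure a spread between samples that may be technical. Since exposure lasted as long in both, the age at its start and the age at its end cannot be told apart. Replicates are numbered as in the labels, with gaps. No sex, cage, day or batch is given.

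The mitochondrial ribosome makes the few proteins that are encoded in mitochondrial DNA, all of them core subunits of the respiratory chain and of ATP synthase. Its RNA comes from the mitochondrial genome, but every one of its proteins is encoded in the nucleus, made in the cytosol and imported. The small subunit reads the messenger RNA, and the large subunit joins amino acids and feeds the new chain to the inner membrane. Heart muscle, which beats on ATP from respiration, depends heavily on it, and inherited faults in several of these proteins, among them MRPL3, MRPL44, MRPS22 and MRPS14, are known causes of childhood cardiomyopathy. Some names mislead. MRPS30 and MRPS18A sit in the large subunit, and MRPS36 is now known as a part of the oxoglutarate dehydrogenase complex.

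Libraries held 12297955 to 17821550 counts each, of which 52101 to 82644 fell on the 78 genes. The 10 cardiomyocyte markers summed to between 81700 and 106300 CPM (counts scaled to library size) in every library, and 7 T and NK cell markers to at most 4.42 CPM in any. The markers of the labelled tissue were thus present throughout. The 3-week libraries varied more among themselves than the 3-month libraries. The median biological coefficient of variation of the 78 genes, the spread beyond counting noise, was 0.15 in a fit of the 11 3-week libraries and 0.0744 in a fit of the 12 3-month libraries.

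All 78 genes were detected in each library, from 22 counts for Mrpl53 to 3770 for Mrpl42. Levels between genes are compared as CPM per kilobase of median annotated transcript length. On that scale Mrpl42, a large-subunit protein without a bacterial counterpart, was the highest at 302.7, followed by Mrpl30 at 217.8, Mrps21 at 200.2, Mrpl28 at 138.0 and Mrpl12 at 134.7. MRPL12 forms the flexible stalk that binds translation factors. The lowest were Mrps30 at 8.55, Mrpl47 at 7.18, Mrpl32 at 6.78, Mrpl19 at 6.45 and Mrpl53 at 4.15 CPM per kilobase. The value of Mrpl53 is uncertain, because 88.0% of its exonic bases also belong to a predicted gene on the same strand.

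The paralogs Mrps18a, Mrps18b and Mrps18c, which derive from the same bacterial protein and are thought to occupy different places on the ribosome, stood at 90.3, 21.6 and 49.3 CPM per kilobase. In all, 33 of the 78 genes share some exonic bases with another counted gene, and 9 share between 23.2% and 88.0%. Among those 9, Mrps25 shares 69.8% with Nr2c2, Mrps34 63.4% with Mapk8ip3 and Mrpl43 33.4% with the mitochondrial helicase gene Twnk. The sources used here do not say whether counting used strand, and values of these genes may include reads of the partner.

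The genes differed in how steady they were over the 23 libraries. Mrpl44, a large-subunit protein with a fold of the RNase III family, was the steadiest, with 52.9 to 64.8 CPM and a ratio of 1.22 between the highest and the lowest library. Mrpl37 followed with a ratio of 1.24. Apart from the weakly counted Mrpl53, the widest range was that of Mrpl54, from 34.9 to 85.8 CPM, a ratio of 2.46. Mrpl33, Mrpl52, Mrpl20 and Mrps21 had ratios between 2.26 and 2.31. These 5 variable genes have short transcripts, of 440.5 to 604 bases at the median, against 1224.5 bases over the 78 genes and 2555 bases over the genes tested.

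**Figure D1:**
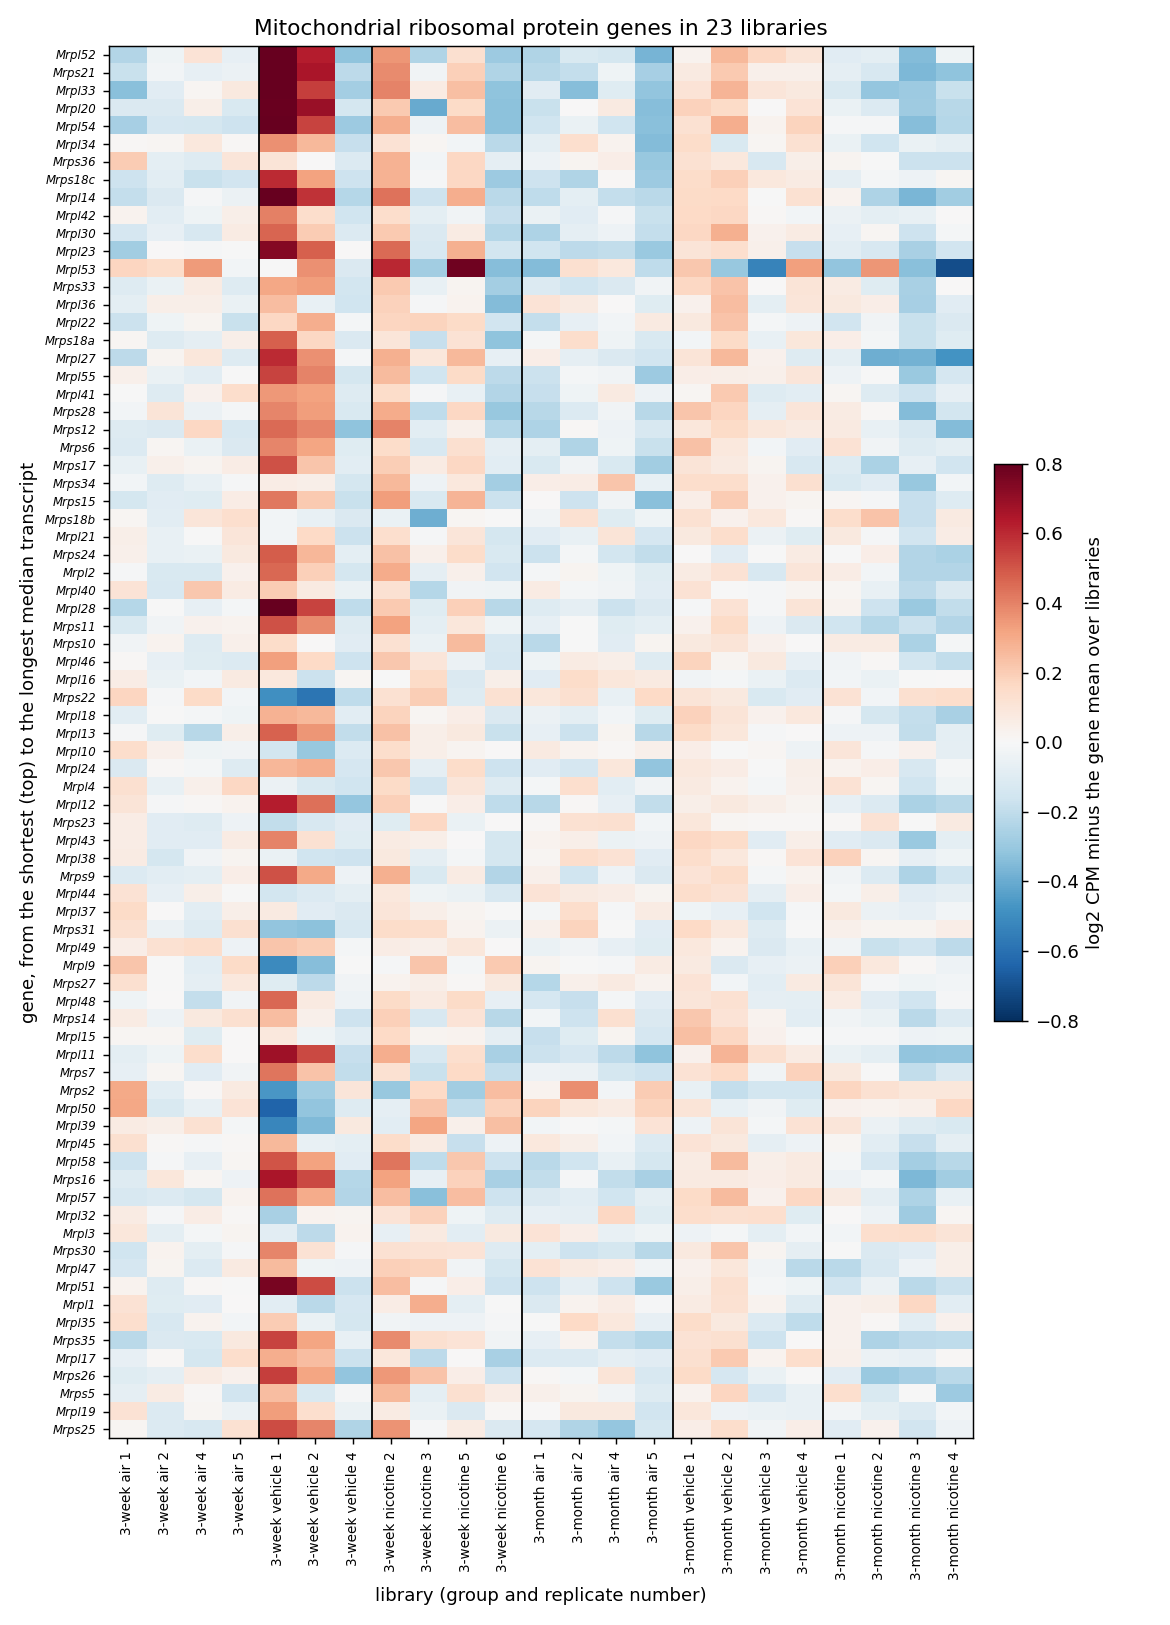
Log2 CPM of the 78 genes (rows, from the shortest median transcript at the top to the longest) in the 23 libraries (columns), minus the gene's mean over libraries; red is above and blue below that mean. The 3-week vehicle libraries 1 and 2 are red over most rows, while Mrps22, Mrps2, Mrpl9, Mrpl50 and Mrpl39 are blue there.

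Much of the variation was shared by the whole set. The median deviation of the 78 genes from their own means, on the log2 scale, was 0.34 in 3-week vehicle library 1, 0.20 in library 2 and -0.12 in library 4. In 3-week nicotine it was 0.19, -0.02, 0.07 and -0.14 in libraries 2, 3, 5 and 6, and the 4 3-week air libraries lay between -0.05 and 0.01. The 3-week vehicle and nicotine groups therefore each held libraries with high and with low levels of the set, whereas air did not.

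In the 3-month groups the medians were narrower. They ran from -0.11 to -0.01 in air, from -0.01 to 0.12 in vehicle and from -0.17 to 0.00 in nicotine. All 4 vehicle libraries lay above all 4 air libraries, although the lowest vehicle and the highest air library were close. The vehicle and nicotine ranges overlapped at their edges.

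A length trend over all genes also differed between libraries. In each library the rank correlation between a gene's transcript length and its deviation was computed over the genes tested, as a description of that library. It was -0.26 and -0.30 in 3-week vehicle libraries 1 and 2 but 0.21 in library 4, and -0.37 and -0.31 in 3-week nicotine libraries 2 and 5 but 0.11 and 0.25 in libraries 3 and 6. In 3-month libraries it was negative in all 4 vehicle libraries (-0.29 to -0.14) and positive in all air (0.10 to 0.34) and all nicotine libraries (0.02 to 0.37). A negative value means that short transcripts stood high in that library. In 3-week air the correlations ran from -0.05 to 0.3. The highest median of the set, 0.34 in 3-week vehicle library 1, stood beside a correlation of -0.26. The lowest, -0.17 in 3-month nicotine library 3, stood beside 0.37. A negative correlation did not always go with a high median. For example, 3-month vehicle library 3 had -0.16 and a median of -0.01, and 3-week air library 2 had -0.05 and the lowest median of its group. The part of this trend in the results was not tested beyond the offset. Fits with transcript length as an offset are given beside the results below.

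**Figure D2:**
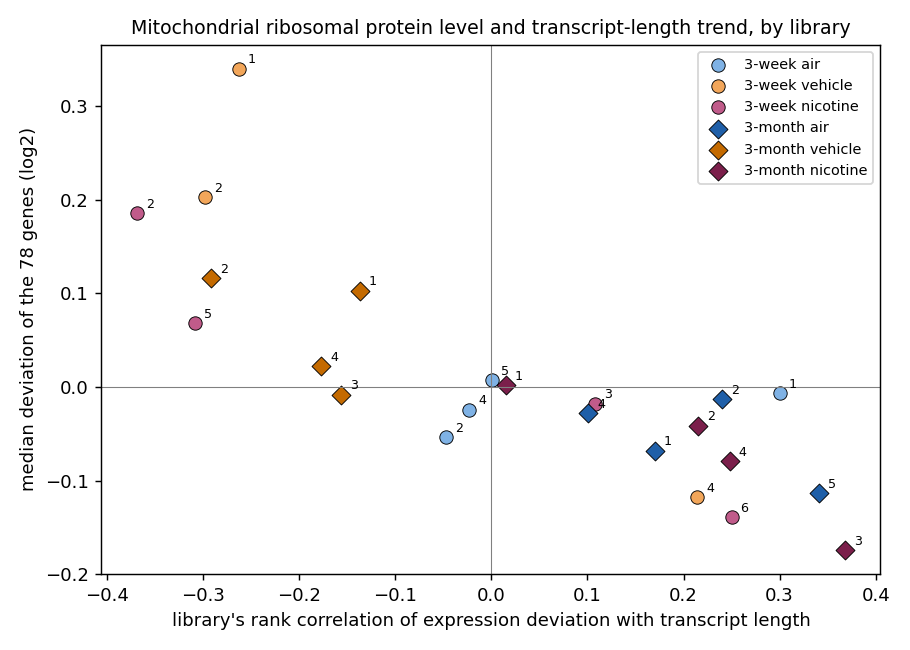
Median log2 deviation of the 78 genes (vertical) against the library's rank correlation of expression deviation with transcript length over all genes tested (horizontal); points are the 23 libraries, numbered by replicate, with circles for 3-week and diamonds for 3-month groups. The 3-week vehicle libraries 1 and 2 stand at 0.34 and 0.20 with negative length correlations, and library 4 at -0.12 with a positive one.

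In 3-week mice, nicotine aerosol was not separated from air at any of these genes. By edgeR's quasi-likelihood test with Benjamini-Hochberg adjustment over all genes, 0 of 78 were called at an adjusted p under 0.05, 0 had an unadjusted p under 0.05, and DESeq2 called 0 as well. Over all genes tested, 0.813% were called and 12.8% had an unadjusted p under 0.05. The median log2 fold change of the set was 0.06, with 58 of 78 genes above 0, against 0.02 over all genes. With the transcript length offset the median was -0.01 and 36 of 78 were above 0. The authors' deposited table of the same comparison lists 78 of the genes, 0 of them under an adjusted p of 0.05.

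The smallest p among genes with a higher mean was that of Mrps35, of the small subunit. Its levels were 95.1, 79.9, 78.8 and 71.7 CPM in nicotine and 63.0, 67.6, 67.3 and 77.4 CPM in air. The groups overlapped at air library 5 (log2 fold change 0.24 ± 0.12 SE, adjusted p = 0.396). Mrpl22 had a value of 0.18 ± 0.10 and an adjusted p of 0.450. On the lower side Mrps18b had -0.14 ± 0.10 with an adjusted p of 0.590, and Mrpl40 -0.11 ± 0.09 with an adjusted p of 0.662.

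Vehicle aerosol against air in 3-week mice was the only comparison in which genes of the set were called in the fit of all libraries. Here 15 of 78 genes were called, 11 higher and 4 lower, while 16.2% of all genes tested were called, 9.27% higher and 6.92% lower. The share of the set called was near that background. In a fit of the 3-week libraries alone, whose spread is larger, 0 of 78 were called, with the share of all genes not given here. The rises and falls given below are therefore calls of the fit of all libraries only. The median log2 fold change was 0.19, with 56 of 78 genes above 0, against a median of 0.02 over all genes. An unadjusted p under 0.05 was reached by 42.3% of the set and by 37.3% of all genes tested. With DESeq2 17 of the set were called, beside 22.1% of all genes. With the transcript length offset there were 10 (3 higher, 7 lower), beside 15.6% of all genes, and the median was 0.02.

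Of the 4 genes that fell, Mrps22, a small-subunit protein found in mitochondrial but not bacterial ribosomes, had the smallest p. It stood at 12.1, 11.3 and 14.7 CPM in vehicle libraries 1, 2 and 4, and at 19.1, 16.8, 18.8 and 16.7 CPM in air libraries 1, 2, 4 and 5. Every vehicle library was below every air library, library 4 included (fall of 0.49 ± 0.11 SE on the log2 scale, edgeR adjusted p = 0.0174). In each other group its levels were between 15.6 and 19.4 CPM. The fall was called with the transcript length offset too (-0.61, adjusted p = 0.0169), but not in a fit of the 3-week libraries alone (-0.49, adjusted p = 0.202) nor without vehicle library 1 (-0.46, adjusted p = 0.247).

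Mrps31, also of the small subunit, stood at 28.4, 28.1 and 32.4 CPM in vehicle and at 38.6, 34.2, 33.0 and 38.6 CPM in air. These ranges did not overlap either, though vehicle library 4 came close to air library 4 (log2 fold change -0.28 ± 0.09, edgeR adjusted p = 0.0426). Mrpl50 fell by 0.41 ± 0.12 on the log2 scale (edgeR adjusted p = 0.0364), with 35.9, 45.1 and 52.2 CPM in vehicle and 69.6, 51.6, 53.7 and 60.5 CPM in air. Mrpl9, a large-subunit protein with a bacterial counterpart, fell by 0.34 ± 0.11 (edgeR adjusted p = 0.0388), with 42.0, 47.1 and 59.6 CPM against 69.6, 59.6, 56.2 and 66.5. For Mrpl50 and Mrpl9 vehicle library 4 lay inside the air range, and libraries 1 and 2 lay below it.

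The genes that rose showed the same division among the vehicle libraries. Mrpl54 stood at 85.8, 64.2 and 36.1 CPM in vehicle libraries 1, 2 and 4 and at 36.7, 40.2, 40.1 and 39.3 CPM in air (log2 fold change 0.66 ± 0.19, edgeR adjusted p = 0.0291). Libraries 1 and 2 were far above air, and library 4 was below all 4 air libraries. Mrps21, a small-subunit protein with a bacterial counterpart, gave 153.8, 137.3 and 75.6 CPM in vehicle and 77.5 to 86.2 CPM in air (0.56 ± 0.17, edgeR adjusted p = 0.0335). Mrpl20, which acts early in assembly of the large subunit in bacteria, gave 79.0, 73.9 and 41.5 CPM against 42.0 to 47.2 (0.58 ± 0.17, adjusted p = 0.0326). In Mrps21 and Mrpl20 library 4 was likewise below all 4 air libraries.

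Mrpl28 gave 246.7, 206.5 and 123.4 CPM in vehicle against 121.5 to 141.9 in air, and Mrps18c 47.0, 38.9 and 27.8 CPM against 27.4 to 29.3. Again libraries 1 and 2 were high and library 4 lay within air. Mrpl23, at the exit of the peptide tunnel, gave 57.2, 48.1 and 34.6 CPM against 28.4 to 34.6, so that library 4 and the highest air libraries were level to within rounding. The other genes that rose were Mrpl14, Mrpl27, Mrpl33, Mrpl51 and Mrps35, by 0.37 to 0.53 on the log2 scale.

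Leaving out vehicle library 1, vehicle library 2 or air library 1 left 0 called, with the shares of all genes not given here. Leaving out air library 5 left 1 (beside 1.1% of all genes). A fit without the low-count filter called 3 (beside 4.19%), and leaving out vehicle library 4 gave 50, beside 44% of all genes. Among the 39 genes with the shorter transcripts, 9 were higher and 1 lower (median 0.23), and among the 39 with the longer ones 2 were higher and 3 lower (median 0.07). Of all tested genes in the length range of the shorter 39, 19.5% were higher and 2.45% lower with a median of 0.28, and of those in the range of the longer 39, 7.03% and 7.94% with a median of -0.03. With the transcript length offset the calls were Mrpl51, Mrps35 and Mrpl28 higher, and Mrps22, Mrpl9, Mrpl50, Mrps31, Mrpl4, Mrpl10 and Mrps36 lower. Of these, 7 were among the 15 called without it. All 4 genes that fell were thus called under the offset too, and 3 of the 11 that rose. The 4 that fell have median transcripts of 1197 to 2114 bases, shorter than the median of 2555 over the genes tested. In this comparison the offset lowered the median of the set. It thus favours falls over rises, and these counts do not show which calls are firmer.

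**Figure D3:**
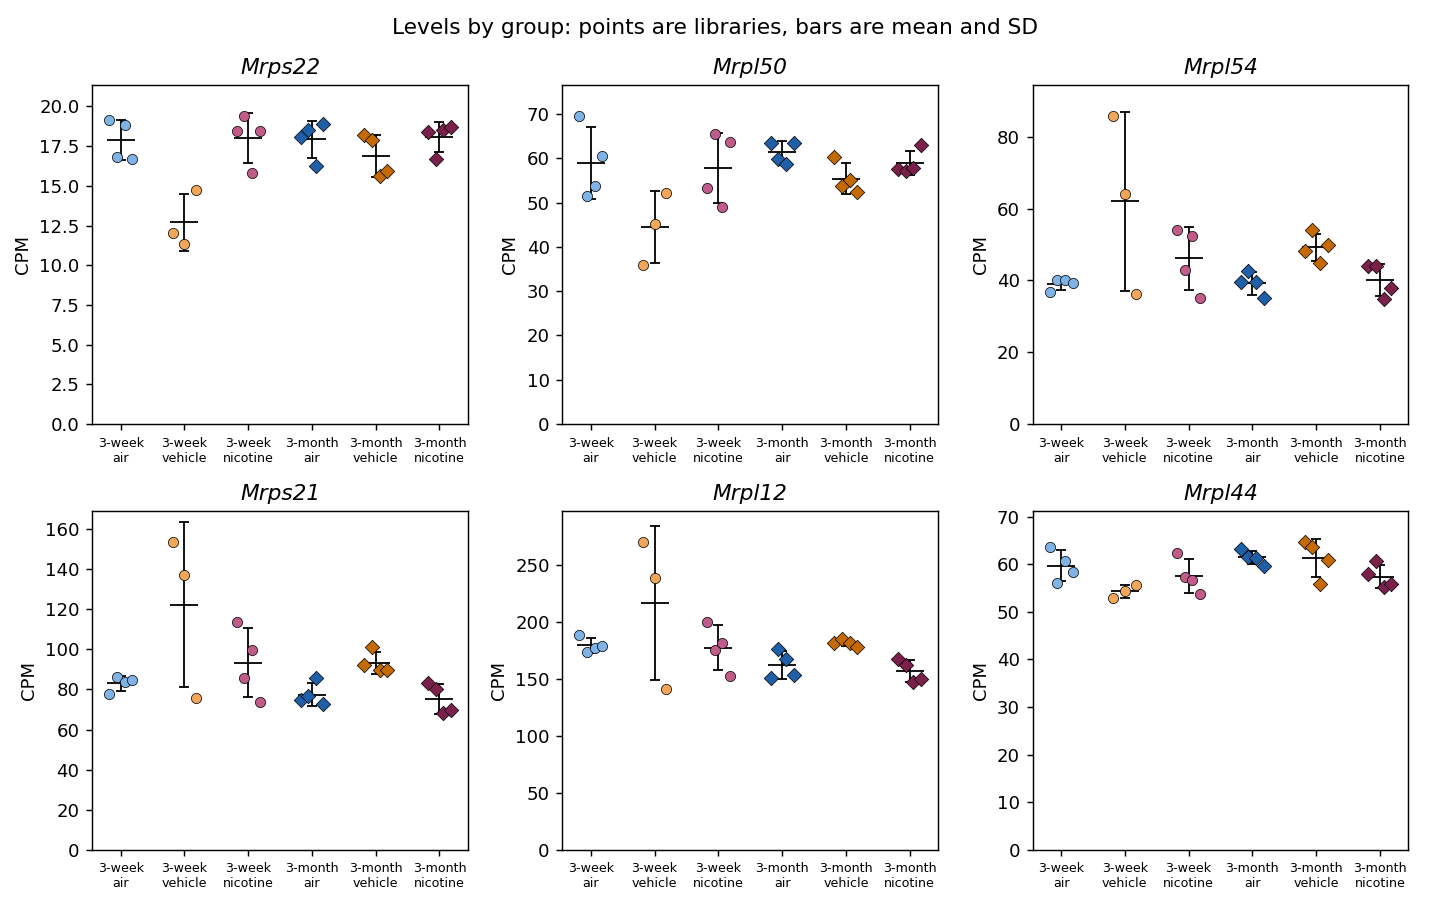
CPM of 6 genes (vertical axis, from 0) in the 6 groups; each point is a library, and the bar with whiskers is the group mean and SD. In the 3-week vehicle group Mrps22 is low in all 3 libraries, Mrpl50 in 2, while Mrpl54, Mrps21 and Mrpl12 are high in 2 libraries and low in the third, and Mrpl44 varies little.

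Some markers of other cells were called between these groups as well, as were 16.2% of all genes tested. Of tested markers, 1 of 6 for neutrophils, 1 of 10 for macrophages and 1 of 9 for fibroblasts was lower in vehicle. For B and plasma cells 1 of 4 was higher. Endothelium (9 tested) and adipocytes (6 tested) each had 1 higher and 1 lower. Those of atrial (7 tested) and smooth muscle cells (8), T and NK cells (3) and blood (5) had 0 called. The 6 B and plasma cell markers summed to 9.76 to 13.7 CPM in vehicle and 5.50 to 9.58 CPM in air, without overlap. The sums of the 7 neutrophil markers overlapped (2.43 to 2.91 against 2.52 to 13.8 CPM, with 1 of the 7 at 0 in all libraries of both groups), as did those of the 7 blood markers (466.8 to 2363 against 505.2 to 931.3 CPM) and the 8 adipocyte markers (812.8 to 1574 against 801.5 to 975.4 CPM). The 10 cardiomyocyte markers summed to 81700 to 93180 CPM against 83500 to 106300, with 3 called higher and 3 lower. In ventricle RNA, fewer cells of a type and less RNA per cell cannot be told apart, and the part of cell makeup in these results was not tested.

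The start regions of the called genes were read from RefSeq for assembly GRCm38.p6, to show which binding motifs of known regulators of nuclear mitochondrial genes they hold. A promoter window, 250 bases before to 50 bases after the start of the gene, was found for 69 of the 78 genes. The motifs searched on both strands were a 9-letter stretch of the NRF1 consensus, GCGCNTGCG, the core of ETS factors such as GABPA, CCGGAAG, that of YY1, AANATGGCG, and the TATA box, TATAAA. The NRF1 stretch was chosen after a form 1 letter longer had been counted, which was in fewer windows of both the set and all genes. It was in the windows of 18 of 69 genes (26.1%) and of 7.12% of all genes with a window, and the ETS core in 26 (37.7%) and 9.93%. The YY1 motif was in 11 (15.9%) and 2.76%, and the TATA box in 5 (7.25%) and 15.7%. At least 1 of the first 3 was found for 63.8% of the set and for 17.3% of all genes with a window. Those are 27025 genes, taken without the filter on low counts that all genes of the set passed. Windows of the set were also richer in CpG pairs, with a median of 21 against 7. Each of the first 3 motifs holds a CpG pair, and the part of CpG content or expression in these shares was not tested. Of the 13 called genes with a window, 5 held an NRF1 or ETS motif within the 120 bases before the start. These 120 bases are shown 5′ to 3′ on the strand of the gene with the motif in capitals (in Mrpl9, overlapping matches on both strands), to set the genes that fell beside those that rose. Mrps22 (chr9:98601680-98601799, minus strand) and Mrpl9 (chr3:94443216-94443335, plus) fell. Mrps21 (chr3:95871515-95871634, minus), Mrpl51 (chr6:125192080-125192199, plus) and Mrpl27 (chr11:94653671-94653790, plus) rose.
Mrps22: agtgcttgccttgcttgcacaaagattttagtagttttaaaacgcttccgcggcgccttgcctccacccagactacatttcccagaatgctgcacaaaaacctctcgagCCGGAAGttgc
Mrpl9: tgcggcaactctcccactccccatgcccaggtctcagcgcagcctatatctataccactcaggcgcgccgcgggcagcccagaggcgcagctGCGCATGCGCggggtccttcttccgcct
Mrps21: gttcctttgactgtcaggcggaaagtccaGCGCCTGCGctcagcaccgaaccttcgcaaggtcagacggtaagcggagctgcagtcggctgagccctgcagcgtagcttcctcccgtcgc
Mrpl51: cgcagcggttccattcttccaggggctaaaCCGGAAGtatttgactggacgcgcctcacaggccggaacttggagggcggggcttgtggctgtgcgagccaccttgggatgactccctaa
Mrpl27: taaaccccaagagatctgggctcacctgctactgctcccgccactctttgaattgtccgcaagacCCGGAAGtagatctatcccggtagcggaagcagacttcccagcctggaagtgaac
Within these 120 bases the NRF1 motif and the ETS core were each found in a gene that fell and in at least 1 that rose, with the NRF1 motif in Mrpl9 and Mrps21 and the ETS core in Mrps22, Mrpl51 and Mrpl27. The shares of the set and of all genes with a motif in these 120 bases were not counted. Elsewhere in the full windows Mrpl14 held the NRF1 motif, and Mrpl33, Mrps18c and Mrps21 the ETS core. All of these rose. A match of letters is a description and does not show that a factor binds there.

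Nicotine against vehicle in 3-week mice uses the same vehicle libraries. Here 0 of 78 genes were called by edgeR, as were 0% of all genes tested. An unadjusted p under 0.05 was reached by 17 (21.8%), beside 19.3% of all genes. DESeq2 called 4 (and 1.64% of all genes), namely Mrps22, Mrps31, Mrpl9 and Mrpl10, all higher in nicotine. The median log2 fold change was -0.12, with 24 of 78 genes above 0. Mrps22 had the smallest p, with 18.5, 19.4, 15.8 and 18.5 CPM in nicotine, all above the vehicle libraries (0.50 ± 0.11, edgeR adjusted p = 0.118, DESeq2 adjusted p = 0.00849). Mrps31 likewise did not overlap (0.32 ± 0.09, edgeR adjusted p = 0.140), with 39.2, 39.0, 36.0 and 34.2 CPM in nicotine. On the lower side were Mrpl20 (-0.57 ± 0.17, edgeR adjusted p = 0.143) and Mrpl51 (-0.38 ± 0.14, adjusted p = 0.177), whose groups overlapped. Without vehicle library 4 edgeR called 33, 6 higher and 27 lower, and 30.3% of all genes tested.

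In 3-month mice vehicle aerosol was not separated from air at any of these genes in the fit of all libraries. Here 0 of 78 genes were called between vehicle and air, as were 0% of all genes tested, and with DESeq2 0 were called. An unadjusted p under 0.05 was reached by 9 (11.5%), beside 14.2% of all genes. The median log2 fold change was 0.11, with 65 of 78 genes above 0, against 0.01 over all genes. For the 39 genes with the shorter transcripts it was 0.16, against 0.19 for all tested genes in their length range. For the 39 with the longer ones it was 0.04, against -0.01 for all tested genes in theirs. In 23 genes every vehicle library was above every air library, which held for 8.52% of all genes, and in 1, Mrps2, every vehicle library was below, which held for 11.6%. In the fit of the 12 3-month libraries alone, whose spread is smaller, 19 of 78 were called, 18 higher and 1 lower, beside 18.7% of all genes tested, 7.64% higher and 11.1% lower. With the vehicle and air libraries alone it was 18, beside 18.4% of all genes. Adipocyte marker sums, at 961.2 to 1335 CPM in vehicle, lay above those of air (766 to 927.7) and of nicotine (839.1 to 929.9), and 0 markers of any list were called. Single adipocyte markers did not follow the sums. Of 6 tested, 3 had a log2 fold change above 0 for vehicle against air (median -0.05). For nicotine against vehicle 4 of the 6 were above 0 (median 0.28). The part of cell makeup in these values was not tested.

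Mrpl30 was among the genes that were higher in vehicle. It stood at 160.6, 174.5, 146.4 and 149.7 CPM in 3-month vehicle libraries 1 to 4 and at 120.4, 135.9, 139.4 and 125.6 CPM in air (0.28 ± 0.11 in the fit of all libraries, edgeR adjusted p = 0.319). Mrpl11, at the base of the factor-binding stalk, stood at 38.6, 45.6, 41.4 and 39.6 CPM in vehicle and at 33.5, 34.3, 32.7 and 30.2 CPM in air (0.34 ± 0.14, adjusted p = 0.326). Mrpl58, a peptidyl-tRNA hydrolase built into the ribosome that frees stalled chains, stood at 53.3, 60.6, 52.6 and 53.5 CPM against 43.9, 45.5, 48.8 and 46.1 (0.26 ± 0.13, adjusted p = 0.362). In all 3 genes the vehicle libraries cleared the air libraries, and in the fit of the 3-month libraries alone all 3 were called, with adjusted p-values of 0.00942, 0.00759 and 0.0167.

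Mrpl15 had the smallest p of the set in this comparison (0.21 ± 0.08, edgeR adjusted p = 0.304) with overlapping groups. Mrps2, which in bacteria is among the last proteins to join the small subunit, went the other way. Its levels were 28.8, 26.3, 27.1 and 27.1 CPM in vehicle, 30.6, 38.8, 29.6 and 34.5 in air, and 33.9, 32.7, 31.9 and 31.9 in nicotine. Vehicle was below both other groups in every library (against air -0.29 ± 0.13, adjusted p = 0.339, and -0.28 with adjusted p = 0.0232 in the fit of the 3-month libraries alone). Mrpl37 followed with -0.11 ± 0.07 and an adjusted p of 0.452.

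The length correlations given above were negative in 3-month vehicle and positive in 3-month air. With the transcript length offset the median of vehicle against air was 0.01 and 40 of 78 genes were above 0. With the offset in the fit of the 3-month libraries alone, 10 genes were called, 7 higher and 3 lower, beside 12.7% of all genes. Of these 8 were also called without it: Mrpl11, Mrpl17, Mrpl51, Mrpl57, Mrpl58, Mrps25 and Mrps30 higher, and Mrps2 lower.

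Nicotine against vehicle in 3-month mice had a median of -0.14, with 66 of 78 genes below 0, against a median of -0.01 over all genes. Among the 39 genes with the shorter transcripts it was -0.16, against -0.19 for all tested genes in their length range. Among the 39 with the longer ones it was -0.09, against 0.01 for all tested genes in theirs. In the fit of all libraries edgeR called 0 of 78 and 0% of all genes tested, and with DESeq2 0 were called. An unadjusted p under 0.05 was reached by 7 (8.97%), beside 12.2% of all genes. In 20 genes every nicotine library was below every vehicle library, which held for 6.66% of all genes, and in 1, Mrps2, every one was above, which held for 12.2%. Mrpl27, whose bacterial counterpart reaches toward the catalytic centre, had the smallest p, with 31.5, 25.3, 25.5 and 23.8 CPM in nicotine and 35.7, 39.6, 33.9 and 30.9 CPM in vehicle (-0.40 ± 0.12, edgeR adjusted p = 0.397). The groups overlapped only at nicotine library 1. Mrpl18, which binds a ribosomal RNA in bacteria, followed with 110.5 ± 8.37 CPM (SD, n = 4) in nicotine and 131.5 ± 5.85 CPM in vehicle (-0.25 ± 0.09, edgeR adjusted p = 0.397), without overlap.

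Higher in nicotine were Mrps2 (0.25 ± 0.13, edgeR adjusted p = 0.420) and Mrpl3 (0.13 ± 0.07, adjusted p = 0.436). In the fit of the 3-month libraries alone 20 genes were called, all lower in nicotine, beside 16.6% of all genes tested, 6.4% of them lower. They included Mrpl27, Mrpl18, Mrpl33, Mrpl14, Mrps21, Mrpl11, Mrpl58 and Mrpl12. With the offset added 9 were called, all lower, beside 9.7% of all genes, and the 5 shared with the fit without it were Mrpl11, Mrpl51, Mrpl57, Mrpl58 and Mrps16. With the nicotine and vehicle libraries alone 17 were called, beside 15.8% of all genes. Blood marker sums were 408 to 552.6 CPM in nicotine and 660.3 to 892.7 CPM in vehicle, and smooth muscle and pericyte sums were 1380 to 1422 against 1218 to 1306 CPM, both without overlap and with 0 markers called. Of 5 tested blood markers 0 had a log2 fold change above 0 (median -0.62). Of 8 smooth muscle and pericyte markers only 3 did (median -0.12), so most went against the direction of their sum. This comparison and vehicle against air share the 4 vehicle libraries.

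Nicotine against air in 3-month mice showed little movement of the set. The median log2 fold change was -0.02, with 31 of 78 genes above 0. By edgeR 0 of 78 were called and 0% of all genes, and with DESeq2 0 were called. An unadjusted p under 0.05 was reached by 1 gene (1.28%), beside 2.63% of all genes. In the fit of the 3-month libraries alone 0 were called too. Mrps34 was the gene under that unadjusted threshold, at 47.1 ± 3.81 CPM (SD, n = 4) in nicotine and 54.3 ± 4.40 CPM in air (-0.20 ± 0.10, edgeR adjusted p = 1). Mrpl27 had -0.25 ± 0.12, Mrps25 0.14 ± 0.13 and Mrps30 0.11 ± 0.09, each with an adjusted p of 1. The authors' deposited table of this comparison also lists 78 of the genes, 0 under an adjusted p of 0.05.

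**Figure D4:**
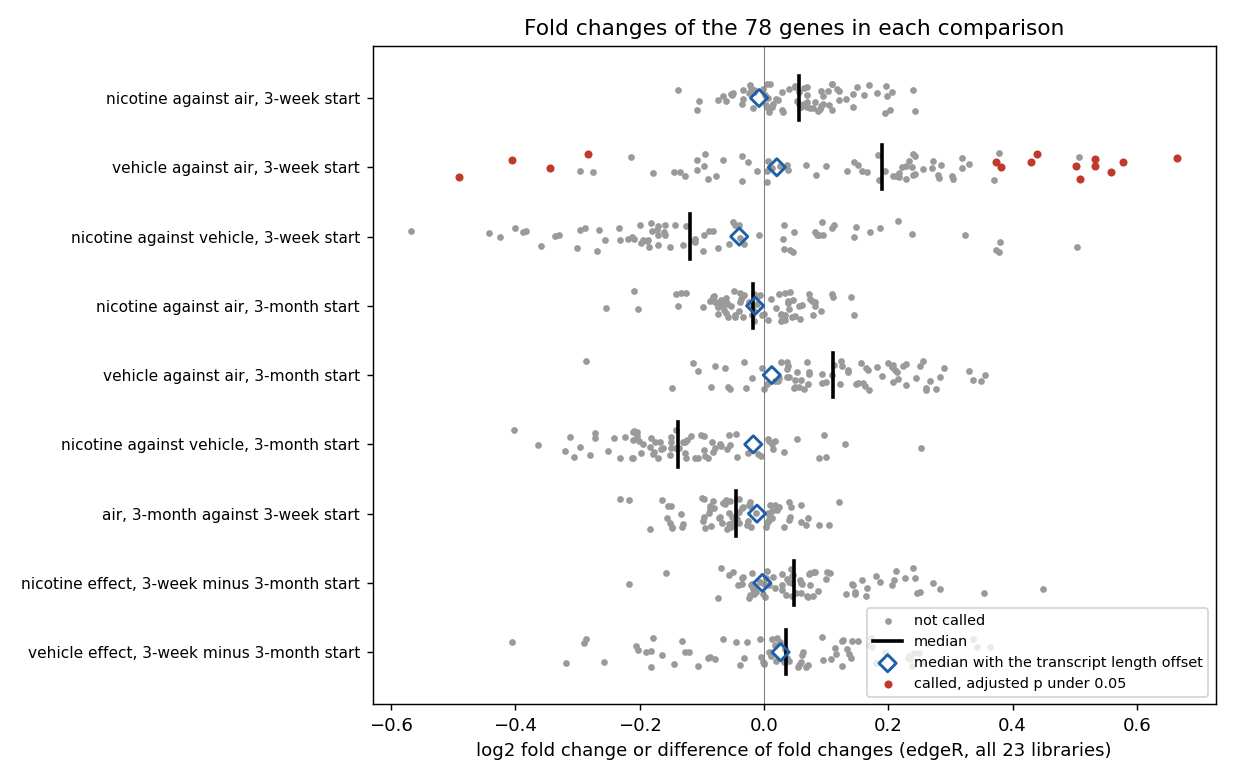
Log2 fold changes of the 78 genes (points) in 7 comparisons and differences of fold changes in 2 (rows), from the fit of all 23 libraries; red points are called, bars are medians, and diamonds are medians with the transcript length offset. Called genes appear only in 3-week vehicle against air (11 higher, 4 lower), and the medians of 0.19 and 0.11 for vehicle against air become 0.02 and 0.01 with the offset.

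The air groups of the 2 starting ages did not differ at any gene of the set by this test. Of 78 genes 0 were called and DESeq2 called 0, beside 0.00645% of all genes called. An unadjusted p under 0.05 was reached by 0, beside 9.08% of all genes. The median log2 difference of 3-month from 3-week air was -0.05. The smallest p was that of Mrpl49 (-0.13 ± 0.08, edgeR adjusted p = 0.635). Mrpl11 was lower in every 3-month air library (-0.22 ± 0.14, adjusted p = 0.681), and Mrps23 and Mrps34 had 0.10 ± 0.07 and 0.12 ± 0.10.

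Whether an effect differed between starting ages was tested by the difference of the fold changes, 3-week minus 3-month. For nicotine 0 of 78 were called by edgeR, beside 0.135% of all genes, and 0 by DESeq2. An unadjusted p under 0.05 was reached by 10.2% of all genes and by 1 gene of the set. That gene was Mrpl27 (difference 0.45 ± 0.17, edgeR adjusted p = 0.325). The next were Mrps34 (0.27 ± 0.14), Mrps18b (-0.22 ± 0.14) and Mrpl17 (-0.16 ± 0.14). For vehicle 0 of 78 were called by either tool and 0% of all genes by edgeR. Without 3-week vehicle library 4 edgeR called 5, beside 9.3% of all genes. With all libraries, an unadjusted p under 0.05 was reached by 12% of all genes and by 2 of the set. The 2 were Mrps22 (-0.41 ± 0.14, edgeR adjusted p = 0.279) and Mrps31 (-0.29 ± 0.12, adjusted p = 0.383). The fall of both in vehicle libraries of the 3-week groups was therefore not shown to differ from the 3-month values, which were -0.09 ± 0.10 and 0.00 ± 0.08.

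Of the 4 genes tied to inherited cardiomyopathy, each had a log2 fold change below 0 for vehicle against air in 3-week mice, and 1 was called. Mrpl3 had -0.09 ± 0.08 there (edgeR adjusted p = 0.422). It stood between 85.9 and 109.5 CPM in all libraries, and its log2 fold changes for nicotine against air were 0.00 ± 0.07 in 3-week and 0.07 ± 0.07 in 3-month mice. Mrpl44 had -0.14 ± 0.08 for vehicle against air in 3-week mice, where its 3 vehicle libraries (52.9, 54.3 and 55.6 CPM) all lay below air (56.0 to 63.6), at an edgeR adjusted p of 0.201. With the exonic length offset this gene was called (-0.27, edgeR adjusted p = 0.0426). It was not called with the transcript length offset, nor in the fit of the 3-week libraries alone. Mrps14 gave -0.01 ± 0.11 in 3-week and 0.11 ± 0.10 in 3-month vehicle against air. Mrps22 was the only one of the 4 called in the fit of all libraries.

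The other genes followed gave varied values. Mrpl12 stood at 270.6, 238.2 and 141.2 CPM in 3-week vehicle and 173.9 to 188.6 CPM in 3-week air (0.27 ± 0.14, edgeR adjusted p = 0.165), high in libraries 1 and 2 and below air in library 4. Mrpl58 had 0.32 ± 0.14 (adjusted p = 0.0955) and Mrps30 0.23 ± 0.10 (adjusted p = 0.098) in that comparison. Of the Mrps18 paralogs, Mrps18c rose by 0.43 ± 0.13 (adjusted p = 0.0384), while Mrps18a had 0.22 ± 0.12 and Mrps18b -0.11 ± 0.11, both uncalled. Their fold changes were not tested against each other.

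Of 103 tested genes in 7 other lists of mitochondrial gene expression, 11 were called in 3-week vehicle against air (10.7%), beside 16.2% of all genes tested, and 1 in 3-week nicotine against air. A list of 6 genes held mitochondrial ribosomal proteins with other names and Oxa1l, which is not itself a ribosomal protein. Of these 6 genes 1 fell, Ptcd3 (-0.54 ± 0.18, edgeR adjusted p = 0.0494). Of 26 measured assembly and rRNA modification genes 1 rose, Rbfa, a small-subunit assembly factor (0.40 ± 0.12), and 2 fell, the rRNA methyltransferase genes Nsun4 (-0.45 ± 0.13) and Mettl15 (-0.76 ± 0.22). Of 16 translation factors 2 fell, elongation factor Gfm1 (-0.76 ± 0.21) and recycling factor Mrrf (-0.35 ± 0.11).

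Of 17 mitochondrial aminoacyl-tRNA synthetases 2 fell, Yars2 (-0.49 ± 0.13) and Iars2 (-0.43 ± 0.14), and of 13 genes of mitochondrial transcription and DNA upkeep 1 fell, Tfam (-0.43 ± 0.13). Of 12 regulators of nuclear mitochondrial genes, including Nrf1 and Gabpa, 0 were called (smallest edgeR adjusted p = 0.0518). List medians of vehicle against air in 3-week mice, from the lowest, were -0.26 for the regulators, -0.19 for transcription and DNA upkeep, -0.10 for the synthetases, -0.07 for the factors and 0.05 for assembly. The list of ribosomal proteins with other names and Oxa1l had 0.13, the 78 genes 0.19 and the mitochondrially encoded proteins 0.23.

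Among the 13 proteins that the mitochondrial ribosome makes, mt-Nd6 and mt-Nd4 of complex I rose in 3-week vehicle against air, by 0.77 ± 0.15 (edgeR adjusted p = 0.0141) and 0.40 ± 0.11 (adjusted p = 0.0311). mt-Nd6 also rose in 3-week nicotine against air, at 3429 ± 414 CPM (SD, n = 4) against 2241 ± 255 (0.61 ± 0.14, adjusted p = 0.0478). These comparisons share the air libraries. mt-Nd6 lies on the other strand from its neighbours, so its counts are uncertain without a known strand setting. In each of the remaining comparisons 0 genes of these lists were called. The mitochondrial ribosomal RNAs were not analysed here.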

How the data were processed

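Left ventricle RNA of 23 libraries was analysed from a table of whole-number counts per gene, deposited by the authors without normalization. The submitters' processing notes name Trimmomatic 0.36, STAR 2.5.2b, featureCounts with Subread 1.5.2, and DESeq2. Genome build, annotation and strand use were not given in the sources used here. For nicotine against air at each starting age the authors also deposited log2 fold changes, p-values and a scaled signal for each library; the signal entered no result. Per-sample columns with no sample numbered 0.

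The fit used edgeR 4.0.16 in R 4.3.3. After filterByExpr at a minimum count of 10 and TMM scaling, the 6 groups were fitted together by robust quasi-likelihood with 17 residual degrees of freedom. Adjusted p-values are Benjamini-Hochberg over all genes tested, with a threshold of 0.05, from this fit unless named otherwise. Levels are CPM with TMM scaling, and fold changes are log2 ± SE. Transcript lengths are from GENCODE vM21. The length offsets use a lowess trend of span 0.5 per library. DESeq2 1.42.0 was the other tool. The fit was tested on simulated counts.

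The genes and lists were chosen with earlier results of these data known. Named genes are those with the smallest p, up to 6 higher and 6 lower called or, with none called, 2 and 2, genes followed throughout, and the 5 highest and 5 lowest per kilobase. Other genes were named after their values were seen.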

Additional observations from a re-analysis of the deposited data

Results flagged for a closer look

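Within each group of 4 libraries, the library at either end was compared with the rest by Dixon's test, in which the gap to the nearest library is divided by the range of the group. Over 39 named genes and the median of the set, 200 gaps were tested and 15 passed the 95% critical value, where chance flags about 1 group in 20. The 3-week vehicle group, with 3 libraries, was not tested.

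In 3-week air, Mrpl20 was high in library 4 (gap 0.943), Mrpl23 low in library 1 (0.958) and Mrpl15 low in library 4 (0.868). Air library 1, where Mrpl23 had a log2 CPM of 4.84 against 5.11 to 5.12 in the others, is among the libraries without which 0 genes were called in 3-week vehicle against air. In 3-week nicotine, Mrpl22 (0.921) and Mrps30 (0.947) were low in library 6 and Mrps18b (0.836) in library 3.

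In 3-month air, Mrpl32 was high in library 4 (0.893). In 3-month vehicle, Mrpl19 (0.889) and Mrps23 (0.883) were high in library 1, Mrpl58 high in library 2 (0.886), Mrps34 low in library 3 (0.849) and Mrpl32 low in library 4 (0.937). In 3-month nicotine, Mrps35 was high in library 1 (0.859), Mrpl50 high in library 4 (0.899) and Mrps22 low in library 2 (0.845), at a log2 CPM of 4.07 against 4.21 to 4.23.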

How the results depend on the processing

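For vehicle against air in 3-week mice, 15 genes were called, beside 16.2% of all genes, and 3 without a low-count filter, beside 4.19%. The count was 0 on the compared groups only and on the same starting age only (also with the transcript length offset). It was also 0 with the replicate block or leaving out air 1 and 5. The shares of all genes in these fits are not given here. Over libraries left out 1 at a time the count ran from 0 to 50, the latter beside 44% of all genes. Its median of 0.19 became 0.021 with the transcript length offset and 0.0029 with that offset on the same starting age only.

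For nicotine against vehicle in 3-week mice, DESeq2 called 4, beside 1.64% of all genes. Libraries left out gave 0 to 33, the latter beside 30.3%. For vehicle against air in 3-month mice, 18 were called on the compared groups only, 19 on the same starting age only and 10 with the offset added. The shares of all genes were 18.4%, 18.7% and 12.7%. Medians were 0.024 with the exonic and 0.0125 with the transcript length offset, and 0.0134 with the latter on the same age. For nicotine against vehicle the corresponding counts were 17, 20 and 9, beside 15.8%, 16.6% and 9.7% of all genes, and the medians -0.060, -0.017 and -0.025. For the difference of the vehicle effect between ages, libraries left out gave 0 to 5 called, the latter beside 9.3% of all genes, and medians of -0.082 to 0.14. With the replicate block the median difference of the nicotine effect was 0.14. Leaving out 3-week vehicle 1 and 2 leaves library 4 as a group of 1, with its spread taken from the remaining groups. The omission was chosen on the values, which fixes its direction, so it restates the levels of library 4 and tests nothing. It gave 0 called and a median of -0.10 against air, with Mrpl54 (-0.10), Mrpl20 (-0.047), Mrps21 (-0.12), Mrpl28 (-0.11) and Mrps18c (-0.0012) below 0, a median of 0.13 for nicotine against vehicle and of -0.19 for the difference of the vehicle effect. Beyond the offsets and omissions themselves, the cause of each change was not tested.

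Of 16 pairs of libraries with the same replicate number, 3 had a correlation of deviations over 0.1, and the range was -0.37 to 0.283. Pairs with different numbers reached -0.593 and 0.561. These correlations cannot decide whether libraries of the same number were paired. The transcript length and GC offsets, the combined fit and both pairs of omissions were chosen after seeing the data. The called genes rest on groups of 3 and 4 libraries, and Mrpl53, with 22 to 65 counts, is the least precisely measured.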
